A study of Homo sapiens with 54 samples.

Results

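PCOLCE, MMD and CLDN12 are 3 of the 18417 genes that could be named on these arrays. They were selected on measured values: they were picked for higher readings in the Argonaute immunoprecipitate (IP) when the microRNA miR-16 or miR-195 had been transfected. Each is measured by a single probe set (8134869 for PCOLCE, 8016832 for MMD and 8134091 for CLDN12). All 3 were among the 11050 genes kept after the genes with the lowest mean levels were left out. The level they were set against is not named, so that any IP array may have entered the choice. Their IP values are therefore given as a description, without a test. The 3 genes are tested in the total lysate, whose values the choice did not use. As an IP signal also depends on how much of a message the cell holds, these tests are not wholly independent of the choice.

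The cells were H4, a human line that the labels call glioneuronal, harvested 48 hours after transfection with a synthetic RNA. The 9 transfections were miR-16 with its relatives miR-195, miR-107 and miR-103, then miR-320 and miR-15b*, and 3 molecules that do not occur in cells. These 3 were a commercial negative control RNA and the altered forms miR-107-mut1 and miR-107-mut2. RNA was taken from the anti-Argonaute IP or from the whole lysate, so that 54 arrays form 18 groups of 3 biological replicates. The design text calls the passenger-strand molecule miR-15b*, while sample titles write miR-15b. All molecules were delivered from outside at doses that the labels do not state, every group is the same cell line, and nothing here speaks of the cells' own miRNA levels.

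Argonaute proteins hold a mature miRNA and use its seed, the bases near the 5′ end, to pair with messages. A message held this way is usually translated less and degraded faster, so a target can rise in the IP while it falls in the lysate. An IP signal depends both on how much of a message the cell holds and on what share of it is bound. PCOLCE encodes a secreted protein that binds the C-propeptide of fibrillar procollagens and speeds its removal by BMP1-type proteinases. MMD encodes a multi-pass membrane protein of the PAQR family, first described in maturing macrophages. CLDN12 encodes a claudin, a membrane protein family of tight junctions that sets how ions pass between cells.

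The mature miRNA sequences show which of the molecules listed below share a seed. They come from RefSeq and are written 5′ to 3′ with the seed, bases 2 to 8, in capitals.
miR-16: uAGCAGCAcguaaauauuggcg
miR-195: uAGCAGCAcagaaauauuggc
miR-103: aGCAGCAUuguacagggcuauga
miR-107: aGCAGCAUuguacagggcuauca
miR-15b*: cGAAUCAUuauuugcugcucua
miR-16 and miR-195 have the same seed and match at 19 of 21 positions counted from the 5′ end. miR-103 and miR-107 share another seed, which holds the letters GCAGCA of the first one moved by a base, and match at 22 of 23 positions. The seed of miR-15b* is unlike both. For miR-103 the entry is that of miR-103a-3p. The sequences of the other 4 molecules were not used here.

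In the first 50 transcribed bases of PCOLCE in RefSeq, the complement of the miR-16 and miR-195 seed, TGCTGCT, occurs 3 times. The stretch that holds the matches lies at chr7:100602371-100602398 on the plus strand of GRCh38.p14, at bases 9 to 36 from the transcript's start. The matches are in capitals and overlap within the second run.
PCOLCE: TGCTGCTgccgccaccgcTGCTGCTGCT
MMD and CLDN12 hold no match in the same window, and none of the 3 genes holds ATGCTGC, the complement of the miR-103 and miR-107 seed, in it. TGCTGCT is present in the first 50 transcribed bases of 396 of 35116 RefSeq starts (1.13%) and of 121 of 8777 tested genes with an entry (1.38%). On the other strand the same letters occur in 341 starts (0.971%). Over the 121 genes the median IP difference from control with miR-16 was -0.08 on the log2 scale, as over all genes tested (-0.08), and the highest of the 120 genes other than PCOLCE was DUSP10 at 0.69. With miR-195 the medians were -0.07 and -0.07. A match is a run of letters, not a measured site, and the rest of each message was not searched.

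Values are the authors' RMA values, read as log2, so that a difference of 1 is a 2-fold change. Those of the IP and of the lysate appear to have been normalized apart, since the array means lay between 3.614 and 3.65 in the IP and between 7.111 and 7.165 in the lysate. The gap between a gene's IP and lysate values therefore has no meaning by itself, and only its change from control is read. Correlations between replicates ran from 0.7666 to 0.9665 in the IP and from 0.8829 to 0.9952 in the lysate. Array miR-15b* replicate 1 stood apart in the IP, with a mean correlation of 0.8052 with the other IP arrays against 0.8841 for the next lowest. In the lysate replicate 2 of miR-15b* (0.8729), miR-16 (0.8945) and miR-103 (0.9296) stood below the next array (0.9493). Of the marker lists, 5 of 10 glial and neural progenitor genes passed the filter on low values, as did 7 of 10 neuronal, 3 of 6 epithelial, 1 of 8 haematopoietic and 0 of 5 endothelial genes, against 11050 of 18417 genes in all. In the control lysate the glial list ran from 4.21 for S100B through 6.51 for GFAP to 12.54 for VIM. In RNA from whole cultures, fewer cells with a message and less message per cell cannot be told apart.

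PCOLCE stood highest in the IP with miR-16, followed by miR-195. With miR-16 its IP values were 11.98, 11.28 and 12.16 in replicates 1 to 3. With miR-195 they were 10.78, 9.91 and 11.32, and with the negative control 9.22, 9.22 and 9.52. The lowest miR-16 and miR-195 arrays lay above the highest control array, while the miR-16 and miR-195 arrays overlapped each other. As a log2 difference from control PCOLCE was higher by 2.48 ± 0.37 (SE, n = 3 and 3) with miR-16, which is 2nd of the 11050 genes from the top, and by 1.35 ± 0.37 with miR-195, which is 9th. In these comparisons 1.26% and 0.67% of all genes were called at an adjusted p below 0.05, but the choice of PCOLCE used them. Most genes called were lower: 124 lower and 15 higher with miR-16, and 68 lower and 6 higher with miR-195. The PCOLCE value with miR-16 was 1.14 ± 0.37 above that with miR-195.

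With miR-103, miR-107 and miR-107-mut2 PCOLCE overlapped its control level in the IP. With miR-103 it read 9.14, 9.43 and 9.34, and with miR-107 it read 9.41, 8.96 and 9.15, and with miR-107-mut2 9.19, 9.13 and 9.52. With miR-107-mut1 it read 9.23, 9.80 and 10.19, which also overlapped the control (0.42 ± 0.37). With miR-320 it read 8.99, 9.09 and 9.14, and all 3 arrays lay below every control array (-0.25 ± 0.37). With miR-15b* the arrays were spread from 7.40 through 8.42 to 9.41 (-0.91 ± 0.37). The value of 7.40 belongs to the array that stood apart, and without it the difference was -0.41. The group means thus ran from 11.80 with miR-16 through 10.67 with miR-195 and 9.74 with miR-107-mut1 to 8.41 with miR-15b*, and every neighbouring pair in that order overlapped. The spread within groups was 0.49 (pooled SD over the 9 groups). Cyclic loess is a normalization that also evens differences that depend on the level. After it the differences from control became 3.19 with miR-16 and 1.94 with miR-195. Those with miR-103 and miR-107 turned from just below control to 0.65 and 0.74 above it. With miR-107-mut1, miR-15b* and miR-320 they were 0.56, -0.01 and -0.18, so the order below miR-195 changed.

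**Figure D1:**
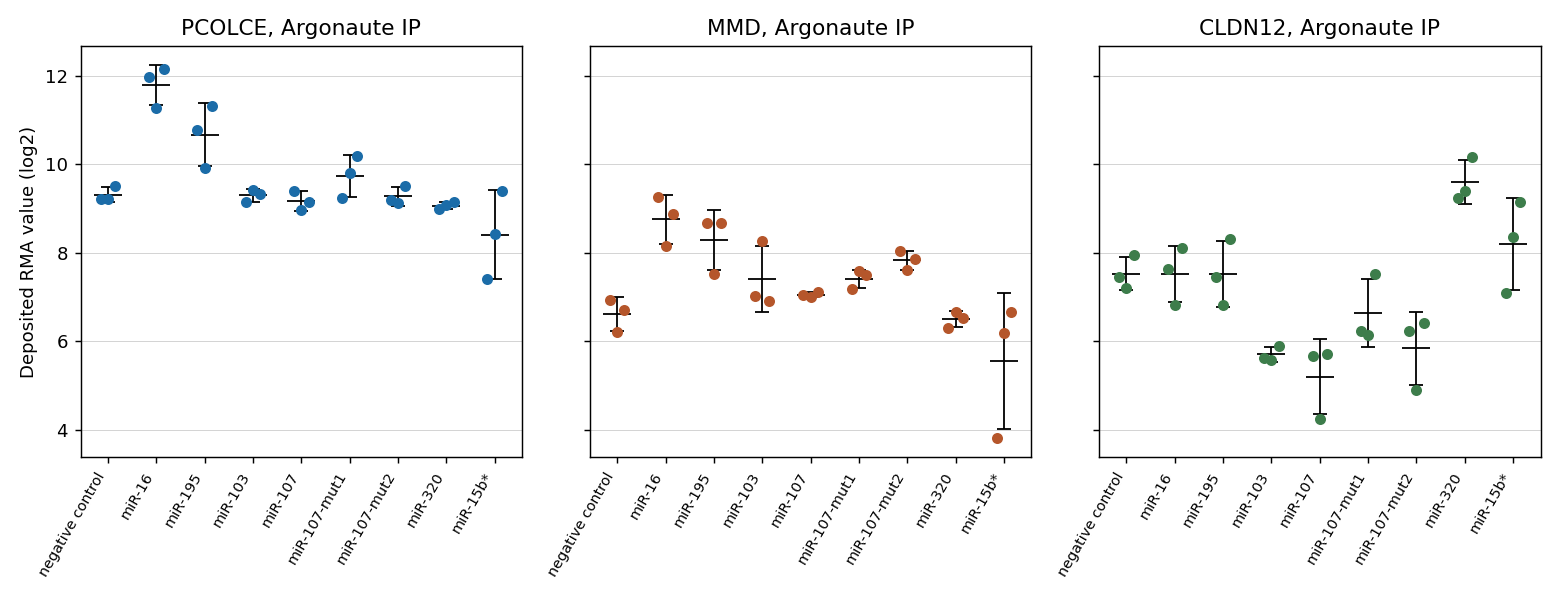
Deposited RMA values (log2) of PCOLCE, MMD and CLDN12 in the Argonaute IP for the 9 transfections; each point is 1 array, the bar is the mean and the whiskers are 1 SD (n = 3). PCOLCE is highest with miR-16 (mean 11.80) and miR-195 (10.67), MMD likewise (8.76 and 8.29), whereas CLDN12 is highest with miR-320 (9.60) and level with the control (7.53) for miR-16 and miR-195.

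In the lysate PCOLCE passed no test. Its group means lay between 13.13 with miR-320 and 13.32 with miR-103, and the ranges of all neighbouring groups overlapped. It was 13.15 ± 0.14 (SD, n = 3) with miR-16, 13.16 ± 0.24 with miR-195 and 13.24 ± 0.12 in the control. The difference from control was -0.09 ± 0.12 with miR-16 (95% interval -0.35 to 0.17, adjusted p = 0.66, limma) and -0.08 ± 0.12 with miR-195 (-0.34 to 0.17, adjusted p = 0.80). PCOLCE was called in none of the 8 lysate comparisons with the control, in which 2.96% (miR-320) to 17.2% (miR-103) of all genes were called. Nor was it called for miR-16 with miR-195 against miR-103 with miR-107 (-0.15 ± 0.09, adjusted p = 0.37), where 10.0% of genes were. With the replicate number as a block in the limma fit, the adjusted p of that comparison was 0.064. Less its lysate change, the IP change of PCOLCE from control was 2.58 with miR-16 and 1.44 with miR-195. The IP part of these values is what chose the gene.

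MMD differed from PCOLCE in that it rose in the lysate as well. In the lysate it read 11.50, 11.74 and 11.53 in the control, 12.70, 12.39 and 12.85 with miR-16 and 12.55, 12.61 and 12.77 with miR-195. The arrays of both miRNAs lay above every control array. MMD rose by 1.06 ± 0.15 with miR-16 (2.09-fold, adjusted p = 2.7e-05, limma) and by 1.06 ± 0.15 with miR-195 (2.08-fold, adjusted p = 3e-05). In these comparisons 17.0% and 14.0% of all genes were called, 9.56% and 6.82% as higher. The difference between miR-16 and miR-195 was 0.00 (95% interval -0.31 to 0.32, adjusted p = 0.99). Across all genes limma called 0 genes between the lysates of miR-16 and miR-195, with 170 at an unadjusted p below 0.05.

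The lysate rise of MMD was not limited to miR-16 and miR-195. With miR-107 its values were 12.62, 12.97 and 12.71, a rise of 1.18 ± 0.15 (2.26-fold, adjusted p = 5.8e-06). With miR-103 they were 12.56, 12.72 and 12.51, a rise of 1.01 ± 0.15 (2.02-fold, adjusted p = 4.2e-05). With miR-107-mut2 they were 12.70, 12.80 and 12.57, a rise of 1.10 ± 0.15 (2.15-fold, adjusted p = 1.9e-05). These 5 groups overlapped one another, and all their arrays lay above the control. The share of genes called was 14.9% with miR-107, 17.2% with miR-103 and 13.8% with miR-107-mut2. The lysates of miR-16 with miR-195 differed from those of miR-103 with miR-107 by -0.04 ± 0.11 (95% interval -0.26 to 0.18, adjusted p = 0.91).

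With miR-107-mut1 MMD read 12.14, 12.43 and 11.90 in the lysate and rose by 0.57 ± 0.15 (1.48-fold, adjusted p = 0.017, where 8.77% of genes were called). The adjusted p became 0.12 without miR-107-mut1 replicate 2, 0.075 without control replicate 1 and 0.072 without control replicate 3. With miR-320 it read 10.91, 11.40 and 11.32, all below the control, and the difference of -0.38 ± 0.15 did not pass (adjusted p = 0.26, 2.96% of genes called). With miR-15b* it read 11.51, 11.21 and 11.39, overlapping the control (-0.22 ± 0.15, adjusted p = 0.37, 7.54% called). Against miR-320 with miR-15b*, a comparison that does not rest on the control arrays, the lysates of miR-16 with miR-195 were higher by 1.36 ± 0.11 (2.56-fold, adjusted p = 6.6e-09, where 20.2% of genes were called). The 8 comparisons with the negative control share its 3 arrays.

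**Figure D2:**
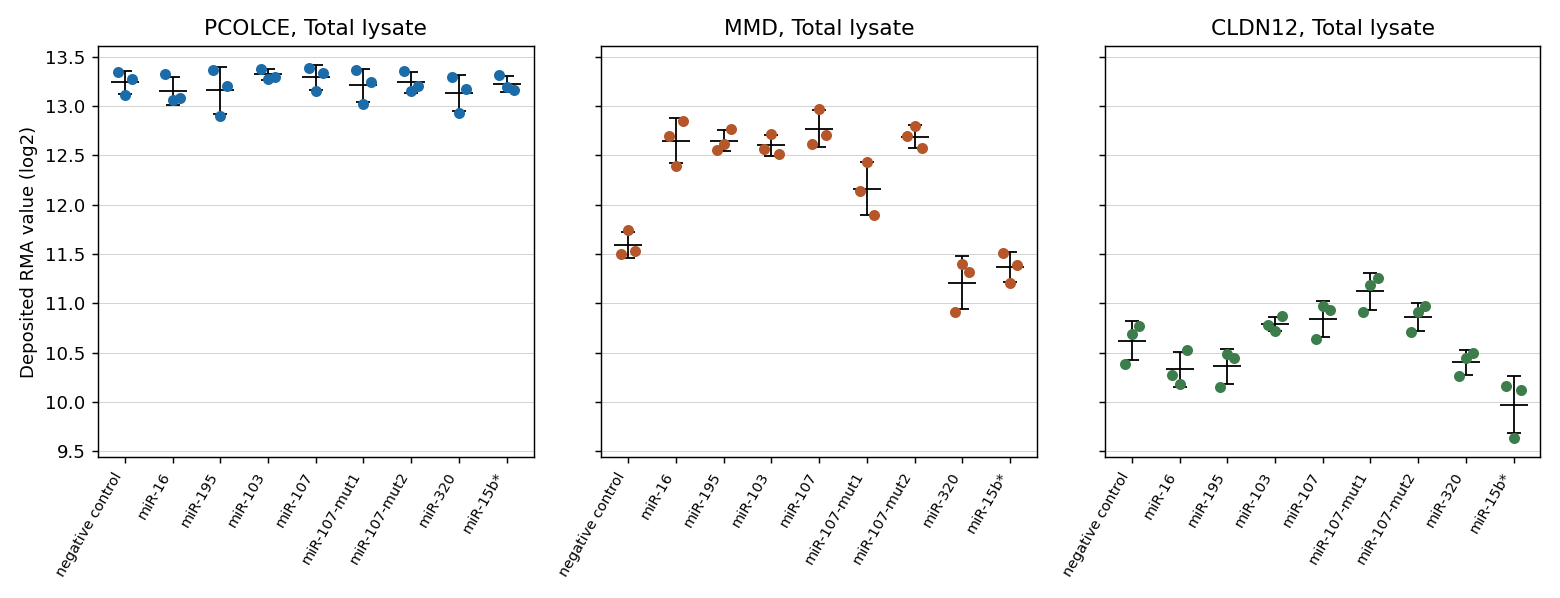
Deposited RMA values (log2) of the 3 genes in the total lysate for the 9 transfections, with the mean (bar) and 1 SD (whiskers) of 3 arrays. MMD forms a high set of 5 transfections (12.60 to 12.77) above miR-107-mut1 (12.16) and a low set (11.21 to 11.59), PCOLCE is level, and CLDN12 runs from 9.97 with miR-15b* to 11.12 with miR-107-mut1.

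In the IP MMD had its highest means with miR-16 and miR-195. Its means with the other transfections that raised it in the lysate lay between these and the control. It read 9.26, 8.15 and 8.87 with miR-16, 8.67, 7.53 and 8.68 with miR-195, and 6.94, 6.20 and 6.70 in the control. Neither miRNA's arrays overlapped the control, and the miRNAs overlapped each other. The differences from control were 2.15 ± 0.50 with miR-16 and 1.68 ± 0.50 with miR-195, the 5th highest of all genes in both. They were 1.22 with miR-107-mut2, 0.80 with miR-107-mut1, 0.80 with miR-103 and 0.44 with miR-107, each ± 0.50. With miR-103 a single array stood high (8.27 against 7.03 and 6.92), and with miR-107 the arrays were close together (7.05, 6.99 and 7.11). The miR-103 arrays overlapped those of miR-16, miR-195 and the control. The highest arrays of miR-107-mut2 (8.03) and miR-107-mut1 (7.58) lay above the lowest miR-195 array.

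At the other end of the IP order MMD read 6.30, 6.67 and 6.52 with miR-320 and 3.80, 6.19 and 6.67 with miR-15b*. The value of 3.80 belongs to the array that stood apart from all others in the IP. The differences from control were -0.12 with miR-320 and -1.06 with miR-15b*, and the latter was -0.18 without that array. After cyclic loess the miR-107 difference moved from 0.44 to 1.20. Less the lysate change, the IP change of MMD from control was 1.09 with miR-16 and 0.63 with miR-195. It was 0.26 with miR-320, 0.23 with miR-107-mut1, 0.12 with miR-107-mut2, -0.21 with miR-103, -0.74 with miR-107 and -0.84 with miR-15b*. The miR-15b* value includes the array that stood apart. The miR-107 value depends on the normalization, since after cyclic loess the changes were 1.20 in the IP and 1.17 in the lysate. With arrays matched by replicate number, the SD of the IP value less the lysate value over 3 replicates was 0.41 with miR-16 and 0.64 with miR-195. It was 0.51 in the control and 1.65 with miR-15b*. These SDs describe single replicates and are not errors of the differences above, which were not tested.

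CLDN12 was not higher in the IP with miR-16 or miR-195 than with the control. With miR-16 it read 7.64, 6.83 and 8.10 in the IP and with miR-195 7.45, 6.81 and 8.31, against 7.45, 7.21 and 7.94 in the control. The 3 groups overlapped throughout, and both differences from control were -0.01 ± 0.53 (0.47 and 0.42 after cyclic loess). From the top, CLDN12 was 4767th of 11050 genes with miR-16 and 4703rd with miR-195. Its values with miR-16 and miR-195 lay above, and did not overlap, those of miR-103 (5.63, 5.57 and 5.90), miR-107 (5.66, 4.24 and 5.71) and miR-107-mut2 (6.22, 4.89 and 6.42). The difference of miR-16 with miR-195 from miR-103 with miR-107 was 2.07 ± 0.37. For PCOLCE and MMD the same difference was 2.00 ± 0.26 and 1.30 ± 0.35, and for MMD the arrays on the 2 sides overlapped. The description under which CLDN12 was picked thus holds beside miR-103 and miR-107 and not beside the control.

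The highest IP values of CLDN12 came with miR-320, at 9.23, 9.40 and 10.17. All 3 arrays lay above the highest control array and above the highest of the other 7 transfections, which was 9.15 with miR-15b*. With miR-15b* the values were widely spread, at 7.09, 8.36 and 9.15. With miR-107-mut1 they were 6.23, 6.15 and 7.53, overlapping the control. Against control the IP difference was 2.07 ± 0.53 with miR-320, 0.67 with miR-15b*, -0.90 with miR-107-mut1, -1.69 with miR-107-mut2, -1.83 with miR-103 and -2.33 with miR-107. After cyclic loess the miR-107 difference was -1.59.

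The altered forms of miR-107 can be set beside miR-320 with miR-15b* in the IP, a comparison added after the values had been seen. CLDN12 was lower with miR-107-mut1 by 2.27 on the log2 scale (-2.27 ± 0.46, 4.81-fold), and the ranges overlapped because of the lowest miR-15b* array. With miR-107-mut2 it was lower by more (-3.06 ± 0.46, 8.34-fold), and no arrays overlapped. Without the miR-15b* array that stood apart the values were -2.54 and -3.34. Both comparisons use the same miR-320 and miR-15b* arrays, and the difference between them was not tested.

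MMD stood the other way in these comparisons, at 1.39 ± 0.43 with miR-107-mut1 and 1.81 ± 0.43 with miR-107-mut2 (3.50-fold), and at 1.37 with miR-107-mut2 when the array that stood apart was left out. PCOLCE stood at 1.00 ± 0.32 and 0.54 ± 0.32. Without that array PCOLCE stood at 0.75 and 0.28, and MMD with miR-107-mut1 at 0.95. Between miR-320 and miR-15b* themselves the IP differences were 1.40 ± 0.53 for CLDN12, 0.94 ± 0.50 for MMD and 0.66 ± 0.37 for PCOLCE. Without the array that stood apart those of MMD and PCOLCE were 0.07 and 0.16, and after cyclic loess 0.24 and -0.17.

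In the lysate CLDN12 was higher with miR-103 and miR-107 than with miR-16 and miR-195, the reverse of the IP. It read 10.78, 10.72 and 10.87 with miR-103 and 10.64, 10.97 and 10.93 with miR-107, against 10.27, 10.18 and 10.53 with miR-16 and 10.15, 10.49 and 10.44 with miR-195. The miR-103 and miR-107 arrays lay above all miR-16 and miR-195 arrays. CLDN12 was lower with miR-16 and miR-195 by 0.47 ± 0.11 (-0.47, 1.39-fold, adjusted p = 0.0045), and leaving out any single array kept the adjusted p between 0.0026 and 0.016. In that comparison 3.57% of genes were called lower. The control read 10.38, 10.69 and 10.77 and overlapped all 4 groups.

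Against the control alone the lysate changes of CLDN12 with these 4 miRNAs did not pass. They were -0.29 ± 0.15 with miR-16 (adjusted p = 0.21), -0.26 ± 0.15 with miR-195 (adjusted p = 0.32), 0.17 ± 0.15 with miR-103 (adjusted p = 0.44) and 0.23 ± 0.15 with miR-107 (adjusted p = 0.39). With array weights, which give less weight to noisy arrays, the first pair passed at -0.45 (adjusted p = 1.4e-07) and -0.29 (adjusted p = 0.0011), but that setting called 7376 and 5963 of the 11050 genes there. With the mean of the negative control, miR-320 and miR-15b* as the control, CLDN12 passed as higher with miR-103 at 0.46 (adjusted p = 0.011), with miR-107 at 0.51 (adjusted p = 0.0043) and with miR-107-mut2 at 0.53 (adjusted p = 0.0039). That mean is lowered by miR-320 and miR-15b*, which themselves stood at -0.21 ± 0.15 and -0.64 ± 0.15 from the negative control.

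The molecules at the ends of the CLDN12 lysate order did pass against the control. With miR-107-mut1 the gene read 10.91, 11.19 and 11.26 and rose by 0.51 ± 0.15 (1.42-fold, adjusted p = 0.036, with 3.33% of genes called higher). The adjusted p rose to between 0.067 and 0.19 without miR-107-mut1 replicate 2 or 3 or control replicate 1 or 2. With miR-15b* it read 10.16, 9.63 and 10.12, all below the control, and fell by 0.64 (-0.64 ± 0.15, 1.56-fold, adjusted p = 0.0083, with 4.04% called lower). The adjusted p was 0.22 with only the arrays compared, 0.064 without miR-15b* replicate 2, which is one of the arrays that stood apart, and 0.053 and 0.058 without control replicates 2 and 3. With miR-107-mut2 (10.71, 10.91 and 10.97) and miR-320 (10.26, 10.44 and 10.50) the differences of 0.25 ± 0.15 and -0.21 ± 0.15 did not pass (adjusted p = 0.29 and 0.72).

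**Figure D3:**
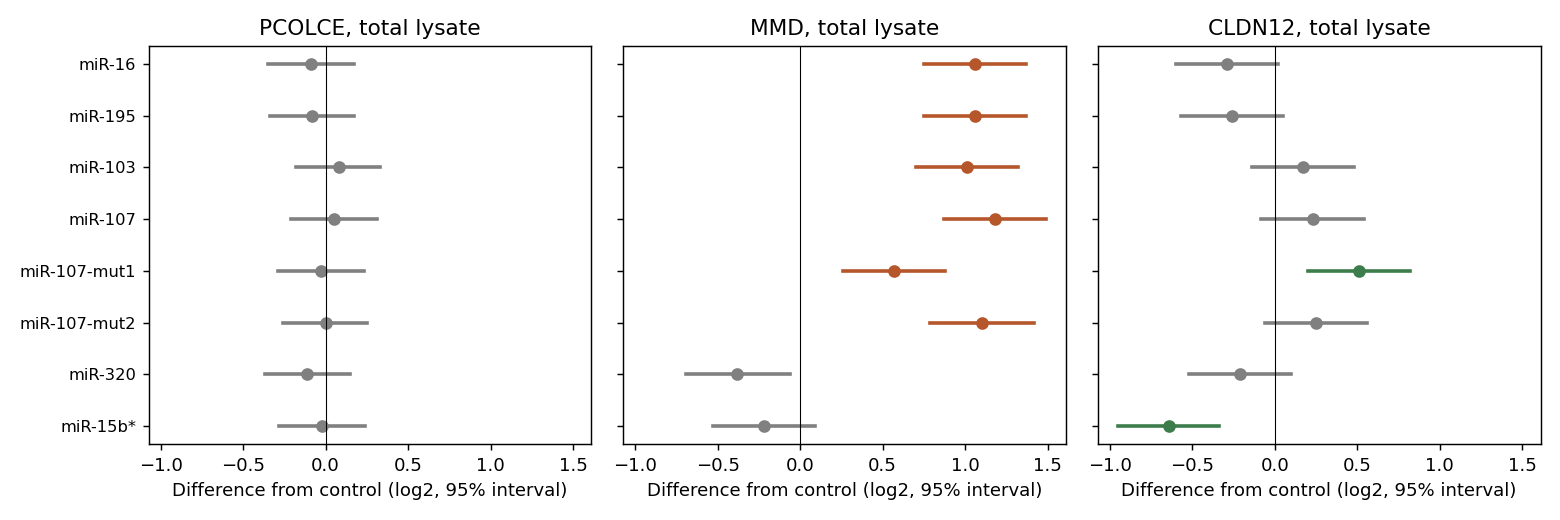
Log2 difference of the 3 genes from the negative control in the total lysate for 8 transfections, as the fitted value (point) and its 95% interval (line); coloured where the adjusted p is below 0.05 and grey otherwise. MMD passed with 6 molecules, CLDN12 with miR-107-mut1 (0.51) and miR-15b* (-0.64), and PCOLCE with none.

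Set against miR-320 with miR-15b* in the lysate, CLDN12 was higher with miR-103, miR-107 and both altered forms of miR-107. The difference was 0.63 ± 0.11 for miR-103 with miR-107 (1.55-fold, adjusted p = 0.00013), 0.93 ± 0.13 for miR-107-mut1 (1.91-fold, adjusted p = 4.7e-05) and 0.68 ± 0.13 for miR-107-mut2 (1.60-fold, adjusted p = 0.0011). The share of genes called higher was 8.11%, 3.54% and 5.01%. In the IP the same comparisons ran the other way, at -3.45 ± 0.37 for miR-103 with miR-107, -2.27 for miR-107-mut1 and -3.06 for miR-107-mut2. The comparator enters these values. From the negative control, miR-320 and miR-15b* stood at -0.21 and -0.64 in the lysate and at 2.07 and 0.67 in the IP. The difference of miR-16 with miR-195 from miR-320 with miR-15b* was 0.16 ± 0.11 in the lysate (adjusted p = 0.35) and -1.38 ± 0.37 in the IP. The comparisons were added after the values had been seen, except those of miR-16 with miR-195 and the IP comparison of miR-103 with miR-107, and they share the miR-320 and miR-15b* arrays.

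**Figure D4:**
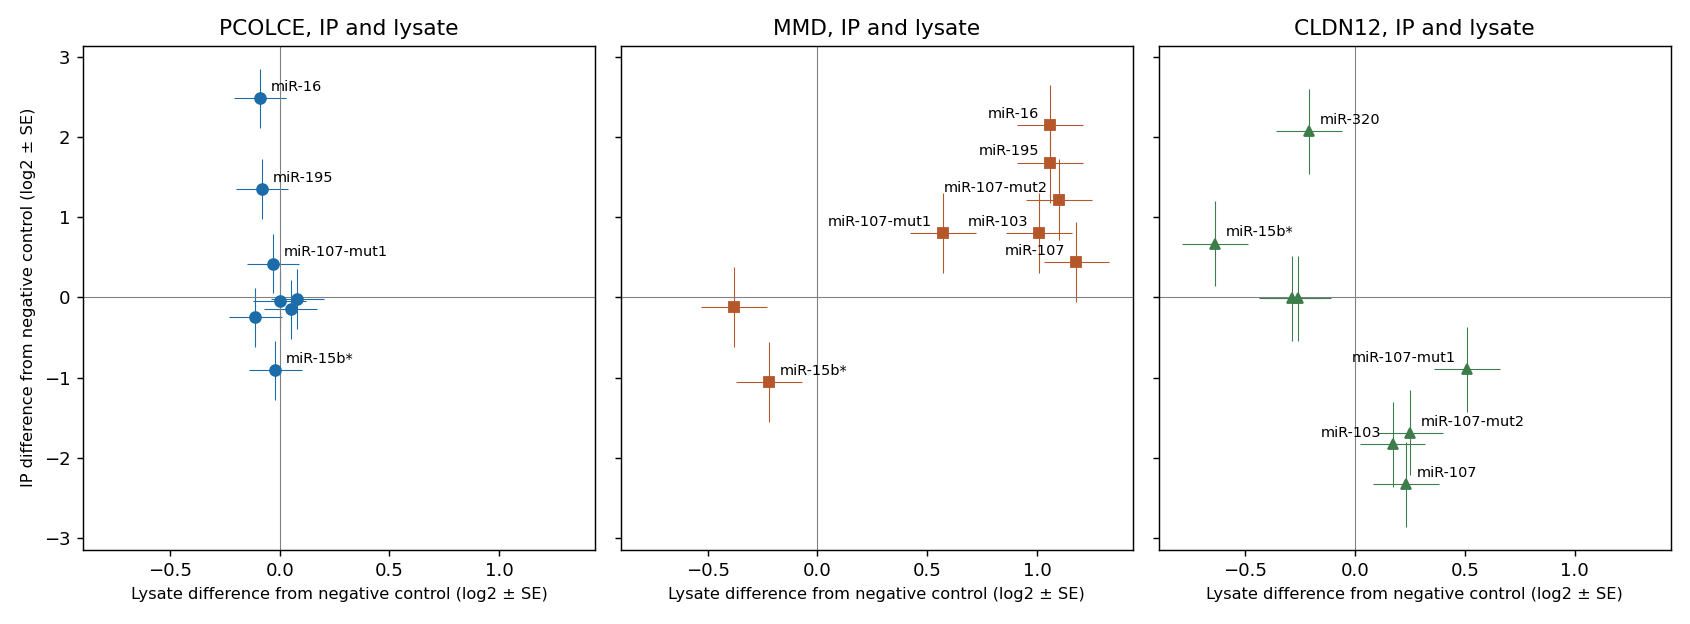
Log2 difference from the negative control in the lysate (x axis) and in the IP (y axis) for 8 transfections, 1 panel a gene, with 1 SE in each direction; names are drawn where the IP difference is beyond 0.40 in either direction. PCOLCE moves along the IP axis only (2.48 with miR-16), MMD along both axes (2.15 and 1.06 with miR-16), and CLDN12 spans 2.07 (miR-320) to -2.33 (miR-107) in the IP and -0.64 (miR-15b*) to 0.51 (miR-107-mut1) in the lysate, where these last values alone passed the test.

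PCOLCE and MMD ran alike in the IP and apart in the lysate, while CLDN12 followed neither of them in the IP. Over the 27 IP arrays Pearson's r was 0.85 between PCOLCE and MMD, 0.14 between PCOLCE and CLDN12 and -0.14 between MMD and CLDN12. In the 27 lysate arrays the same values were 0.05, 0.02 and 0.44. The arrays share 9 transfections, and PCOLCE and MMD were picked for the same IP groups, so these values only describe. The IP values include the miR-15b* array that stood apart, which was the lowest for PCOLCE (7.40) and for MMD (3.80). They were not recomputed without it.

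The genes whose IP values ran most like those of each member were found over the 27 IP arrays, the array that stood apart included. Nearest to PCOLCE after MMD were SNORD15B (r = 0.83), a small nucleolar RNA, and ACTG1 (r = 0.78), the cytoplasmic gamma actin, with lysate values of 0.30 and -0.04. Their IP differences from control with miR-16 were 0.65 and 0.73, well below that of PCOLCE. Nearest to MMD were TMEM158 (r = 0.89, lysate 0.70) and WIPI1 (r = 0.86, lysate 0.60), a phosphoinositide-binding autophagy protein. With miR-16 they stood 0.92 and 1.25 above control in the IP and 2.19 and 1.18 above it in the lysate. Nearest to CLDN12 were TRIB1 (r = 0.91, lysate -0.28), a pseudokinase, DCP1A (r = 0.86, lysate 0.70), a decapping cofactor, and NRN1 (r = 0.84, lysate 0.42), a neuritin. NRN1 was higher in the IP with miR-320 by 3.31 and lower with miR-107 by 1.89 (-1.89).

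Among 26 genes of procollagen processing and collagen folding, the pathway of PCOLCE, 22 were tested. In the lysate 5 rose and 2 fell with miR-16, and 3 rose and 1 fell with miR-195, with list medians of 0.18 and 0.22 beside 0.05 and 0.01 over all genes. Of all genes 9.56% and 6.82% were called higher and 7.45% and 7.22% lower in these comparisons. ADAMTS14, a procollagen N-proteinase, rose by 3.09 ± 0.22 with miR-16 (adjusted p = 2.5e-09) and by 2.61 ± 0.22 with miR-195 (adjusted p = 2.9e-08), and it was called higher in 6 of the 8 lysate comparisons with control, miR-15b* included (1.44). LOXL2, which cross-links collagen, rose by 1.48 ± 0.18 and 1.51 ± 0.18 (adjusted p = 4e-06 and 3.2e-06) and was called higher in 8 of 8, with miR-320 at 1.02 and miR-15b* at 0.89. LOX, the lysyl oxidase, rose with miR-195 by 0.79 ± 0.22 (adjusted p = 0.016) and stood at 0.37 ± 0.22 with miR-16 (adjusted p = 0.28). In the IP with miR-16 a single gene of the list passed, ADAMTS14 at 1.58 ± 0.33 (adjusted p = 0.017), and with miR-195 no gene did. In these IP comparisons 1.26% and 0.67% of all genes were called, 15 and 6 genes of them as higher. Of 10 collagen chains that BMP1-type proteinases cut, 9 were tested, and COL5A1 alone rose in both lysates (0.83 ± 0.17 and 0.77 ± 0.17, adjusted p = 0.0012 and 0.0027); it was called higher in 4 of 8.

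Of the 10 other PAQR family genes, the relatives of MMD, 6 were tested. PAQR5, a membrane progestin receptor, rose in the lysate by 0.52 ± 0.13 with miR-16 (adjusted p = 0.0065) and by 0.51 ± 0.13 with miR-195 (adjusted p = 0.0081). It was called higher in 7 of the 8 lysate comparisons, with values up to 0.83 with miR-107-mut2. The share of all genes called higher was 9.56% with miR-16 and 6.82% with miR-195. PAQR6 rose by 0.34 ± 0.11 with miR-16 (adjusted p = 0.039) and stood at 0.17 ± 0.11 with miR-195 (adjusted p = 0.41). None of the 6 passed in the IP with either miRNA, where 1.26% and 0.67% of all genes did. MMD2, the closest namesake of MMD, did not pass the filter on low values.

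Of 22 other claudins 21 were on the array and 8 were tested. None of the 8 passed in the lysates or the IP of miR-16 or miR-195, with lysate medians of 0.17 and 0.06, where 17.0% and 14.0% of all genes passed in the lysate and 1.26% and 0.67% in the IP. Of 23 other tight junction genes 11 were tested. AMOT, the junction protein angiomotin, fell in the lysate with miR-16 (-0.54 ± 0.16, adjusted p = 0.024) and with miR-195 (-0.53 ± 0.16, adjusted p = 0.030), and was called lower in 4 of the 8 lysate comparisons, with miR-103 and miR-107 the others. PARD6B, a polarity protein, rose with miR-195 by 0.45 ± 0.14 (adjusted p = 0.032) and stood at 0.36 ± 0.14 with miR-16 (adjusted p = 0.081). None of the 11 passed in the IP of miR-16 or miR-195, where 1.26% and 0.67% of all genes did.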

How the data were processed

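The deposited log2 values were made by the authors with RMA. The submitters' processing notes also name Affymetrix Expression Console 1.1. The log base is read from the range of the values. The arrays are Human Gene 1.0 ST, per the labels. A genome build is not given in the sources used here. The platform annotation gave 1 symbol to 19460 of 33297 probe sets, more than 1 to 1754 and no symbol to 12083. By gene ID 19429 were matched to RefSeq names, which gave 18417 genes. Of 769 genes with several probe sets the one with the highest mean over all arrays was used. Genes in the lowest 40% by mean (below 5.2583) were left out, which left 11050.

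Each fraction was fitted with limma 3.58.1 in R 4.3.3 over its 27 arrays and 9 groups (lmFit, eBayes), two-sided, with Benjamini-Hochberg adjustment over 11050 genes and a threshold of 0.05. Errors are SE of fitted differences or SD of 3 arrays. The number of arrays limits the precision. The fit was tested on simulated data. The genes named from lists were up to 3 of each list with the largest change among those called in the lysate of miR-16 or miR-195 with the same sign in both; for each member the 3 genes with the highest IP correlation were named.

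The members and lists were chosen with earlier results of these data known. IP tests of the members with miR-103 and miR-107 had been planned; as the comparator of the choice is not named, the members' IP values are given without p. Genes of the lists keep their IP tests. Comparisons of miR-107-mut1, miR-107-mut2 and miR-103 with miR-107 against miR-320 with miR-15b*, and of miR-320 against miR-15b*, were added after the values had been seen, other than the IP comparison of miR-103 with miR-107. Alternatives covered the filter, normalization, variance model, samples in the fit, array weights, replicate block, probe sets, control group and single replicates. The array weights did not reach their convergence tolerance in some fits.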

Additional observations from a re-analysis of the deposited data

Results flagged for a closer look

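For miR-103 with miR-107 against miR-320 with miR-15b*, CLDN12 was higher in the lysate (0.63 ± 0.11) and lower in the IP (-3.45 ± 0.37), and the IP change less the lysate change was -4.08 ± 0.40. It is flagged because the contrast differs between the fractions. As these IP arrays may have entered the choice of the gene, the value is a description and no p is given. The corresponding values of MMD and PCOLCE were -0.19 ± 0.38 and 0.37 ± 0.28. Both sides of the contrast entered the CLDN12 value. Relative to the negative control, the IP change of CLDN12 less its lysate change was -2.01 with miR-103 and -2.56 with miR-107. It was 2.28 with miR-320 and 1.31 with miR-15b*.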

How the results depend on the processing

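Over the 3 genes, 743 of the recomputed lysate values kept their side of the threshold (23 of them changed sign with neither value called), 9 came to pass it, 11 ceased to, and 2 changed sign with a call. Of the IP values 958 moved by less than 1 SD (19 of them with a change of sign), 17 moved by more and 6 moved by more with a change of sign. The sign changes with a call were PCOLCE in the lysate with array weights, for miR-16 against miR-195 (0.13, adjusted p = 0.014) and for miR-16 with miR-195 against miR-320 with miR-15b* (0.10, adjusted p = 0.050). Those beyond 1 SD were IP values after cyclic loess: PCOLCE with miR-103 (0.65) and miR-107 (0.74) against control, with miR-320 against miR-15b* (-0.17), with miR-107 against miR-107-mut1 (0.18; MMD 0.36) and with miR-107 against miR-107-mut2 (0.52). The cause was not tested. Cyclic loess moved the median of all genes in the IP with miR-107 against control from -0.19 to 0.01 and with miR-15b* from -0.17 to 0.01.

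In the lysate array weights made CLDN12 pass against control with miR-16 (-0.45), miR-195 (-0.29) and miR-320 (-0.27). They also made it pass for miR-16 against miR-195 (-0.16) and miR-320 against miR-15b* (0.33). The weights did not reach their tolerance in some fits. Leaving out single replicates gave 0.96 to 1.19 for MMD with miR-16, 1.00 to 1.13 with miR-195, and -0.52 to -0.42 for CLDN12 between miR-16 with miR-195 and miR-103 with miR-107.

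With the replicate number as a block, CLDN12 passed for miR-320 against miR-15b* in the lysate (0.43, adjusted p = 0.031); MMD in the lysate with miR-16 stayed at 1.06 (adjusted p = 1.7e-05). No other lysate call of the 3 genes changed under the block. Same-numbered arrays deviated together on average (r = 0.266 in the IP, -0.146 to 0.672, and 0.307 in the lysate, -0.469 to 0.949). Of 108 pairs 84 and 79 were above 0.1, so a shared deviation was common but not uniform. PCOLCE shows it, as replicate 1 was its highest array in every lysate group. The fits without the block leave this shared part in their spread.

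Counts of genes called moved more than the members' values. Over the 8 lysate comparisons with control they ran from 327 to 1906, and from 2367 to 7376 with array weights, 671 to 2834 with the block, 50 to 3012 with only the arrays compared and 139 to 2453 leaving out single replicates. Over the 8 IP comparisons they ran from 24 to 423, and from 5 to 1263, 151 to 1950, 0 to 1330 and 6 to 1407 under the same settings, and 75 to 520 after cyclic loess. For miR-16 with miR-195 against miR-103 with miR-107 in the lysate the count was 1109, and 5914 with array weights, 1736 with the block and 670 with only the arrays compared.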
